A study of Mus musculus with 9 samples.

Results

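Matricellular proteins are secreted into the matrix around cells, where they act on cell behaviour more than they build structure. The 8 genes described here are the 4 thrombospondins Thbs1, Thbs2, Thbs3 and Thbs4, tenascin-C (Tnc), osteopontin (Spp1), and the related genes Sparc and Sparcl1. They are 8 of the 54532 genes in the count table and were chosen by symbol, as a family around Thbs1, which was selected for its rise after ischemia-reperfusion (I/R) in these libraries. Its difference between MIRI and sham hearts is therefore a description and carries no test.

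RNA was sequenced from hearts of male wild-type C57BL/6J mice aged 8 to 10 weeks, with 3 mice in each of 3 groups. Sham mice had the chest opened and a thread passed under the left anterior descending coronary artery without tying it. In MIRI mice (myocardial ischemia/reperfusion injury) the artery was tied for 30 min and released for 24 h, and saline was given. GXNI mice had the same operation and received Guanxinning injection, a preparation of Danshen and Chuanxiong, at 9 mL/kg through the tail vein. The groups hold young males only, and each injured heart was sampled at a single time after the injury.

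Total counts ran from 17119454 to 22811295 per library, and levels are given in CPM, counts scaled to the normalized library size. A count of 3 was worth 0.132 to 0.175 CPM. The labels give the cells as cardiomyocytes, but the summed level of 6 fibroblast markers was 472 to 1114 CPM and that of 6 endothelial markers 556 to 1045 CPM over the 9 libraries, so the RNA is described here as that of heart tissue. In such bulk tissue, fewer cells of a type and less RNA per cell cannot be told apart. Across genes that passed a filter on low counts, no injured library was most like one of its own label. The library labelled MIRI 2 was most like GXNI 1 (Spearman rho across genes 0.982) and that labelled GXNI 3 was most like MIRI 3 (0.987). MIRI 1 and MIRI 3 were most like GXNI 3 (0.986 and 0.987), GXNI 2 was most like MIRI 1 (0.980), and GXNI 1 was most like sham 1 (0.984). The fold changes tabulated by the study match a grouping in which the 2 libraries MIRI 2 and GXNI 3 are exchanged. Values below follow the deposited labels, and those with the 2 libraries exchanged (the published grouping) or both left out are given beside each result that rests on them.

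Thrombospondins bind calcium, other matrix proteins and cell surface receptors. Thbs1 and Thbs2 form trimers that restrain new vessel growth through the receptor CD36 and bind CD47, and Thbs1 also activates latent TGF-β. Thbs3 and Thbs4 form pentamers. Tenascin-C is low in the adult heart and reappears around injured muscle, osteopontin is made by activated macrophages and other cells and binds integrins and CD44, and Sparc and Sparcl1 bind collagen and affect its assembly.

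The 8 genes lie on 7 chromosomes of GRCm38 (annotation GENCODE M21), and all are protein coding. Thbs1 (ENSMUSG00000040152) lies on chromosome 2 from 118111876 to 118127133, forward strand, and Thbs2 (ENSMUSG00000023885) on chromosome 17 from 14665500 to 14694235, reverse strand. Thbs3 (ENSMUSG00000028047) lies on chromosome 3 from 89215180 to 89226837, forward strand, and Thbs4 (ENSMUSG00000021702) on chromosome 13 from 92751590 to 92794818, reverse strand. Tnc (ENSMUSG00000028364) lies on chromosome 4 from 63959785 to 64047015, reverse strand, and Sparc (ENSMUSG00000018593) on chromosome 11 from 55394500 to 55423183, reverse strand. Spp1 (ENSMUSG00000029304), from 104435118 to 104441050 on the forward strand, and Sparcl1 (ENSMUSG00000029309), from 104079111 to 104113733 on the reverse strand, are both on chromosome 5. Thbs3 shares 318 exonic bases with Mtx1 on the opposite strand, a gene with 1913 counts over the 9 libraries, and Spp1 shares 309 exonic bases with Gm42793 on the same strand, a gene with 9 counts. The strand setting of the counting is not given in the sources used here, so reads from such shared bases cannot be assigned.

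The promoters of 4 members are shown because these genes stood high in injured hearts in most libraries (Thbs4, Tnc and Spp1) or low in them (Thbs2). Each is the 250 bases before a RefSeq start site in GRCm38.p6, 5′ to 3′ on the gene's strand. Capitals mark matches on either strand to the GC box GGGCGG or the TATA box TATAAA. Tnc and Spp1 each had 1 further window, for another start site, which is not shown. That of Tnc overlaps the window shown and holds the same matches, and that of Spp1 (chr5:104435942-104436191) holds none.
Thbs4, chr13:92794819-92795068: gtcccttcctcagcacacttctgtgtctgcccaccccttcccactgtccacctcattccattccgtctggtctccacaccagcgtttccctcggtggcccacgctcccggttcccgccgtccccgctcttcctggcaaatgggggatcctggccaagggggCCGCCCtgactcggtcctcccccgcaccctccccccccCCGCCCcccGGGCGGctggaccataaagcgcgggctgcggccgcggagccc
Tnc, chr4:64047016-64047265: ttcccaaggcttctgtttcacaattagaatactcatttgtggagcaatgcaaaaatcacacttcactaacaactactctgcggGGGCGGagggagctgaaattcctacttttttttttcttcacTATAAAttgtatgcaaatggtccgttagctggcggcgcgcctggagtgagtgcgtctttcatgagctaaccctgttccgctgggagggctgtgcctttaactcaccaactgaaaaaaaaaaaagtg
Spp1, chr5:104434861-104435110: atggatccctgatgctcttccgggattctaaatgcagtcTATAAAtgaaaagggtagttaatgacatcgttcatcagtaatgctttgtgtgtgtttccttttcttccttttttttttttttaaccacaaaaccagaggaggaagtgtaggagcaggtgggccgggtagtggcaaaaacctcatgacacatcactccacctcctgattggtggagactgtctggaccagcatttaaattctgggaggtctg
Thbs2, chr17:14694263-14694512: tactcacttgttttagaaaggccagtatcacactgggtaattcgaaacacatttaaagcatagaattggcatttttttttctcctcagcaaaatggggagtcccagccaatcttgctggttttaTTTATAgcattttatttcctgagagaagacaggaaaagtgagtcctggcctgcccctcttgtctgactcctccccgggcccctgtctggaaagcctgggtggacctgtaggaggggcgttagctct
The Thbs4 window was the most GC-rich of these, at 70.8% GC, and held 3 GC boxes, which lie 89, 51 and 42 bases before the start. A GC box was present in 32.7% and a TATA box in 12.4% of 32851 windows of the same length. The AP-1 site TGANTCA (6.75% of windows) and the CArG box (1.47% of windows) had no match in the windows of the members found in the promoter table. These are matches of letters only, and Thbs1 and Sparcl1 had no entry in that table.

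Thbs1 was low in all sham hearts and high but uneven after I/R. It measured 7.09, 2.92 and 6.50 CPM in sham 1 to 3, 535, 38.3 and 998 CPM in MIRI 1 to 3, and 20.9, 174 and 892 CPM in GXNI 1 to 3. All 6 injured hearts lay above all 3 sham hearts, and the spread among injured hearts was wide, 47.8 times between the highest and the lowest. The fitted level was 95.9-fold higher in MIRI than sham (log2 fold change 6.58 ± 1.20, SE, n = 3 per group). In GXNI against sham the fold was 66.5 (log2 6.06 ± 1.36). The lowest injured hearts were MIRI 2 and GXNI 1. Leaving out MIRI 3 gave a log2 fold change of 5.71 in MIRI against sham, and leaving out 1 library at a time gave 4.16 to 6.61 in GXNI against sham. With MIRI 2 and GXNI 3 both left out, the log2 fold changes were 7.13 in MIRI and 4.16 in GXNI hearts against the same sham libraries, and with them exchanged 7.20 and 3.83.

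**Figure D1:**
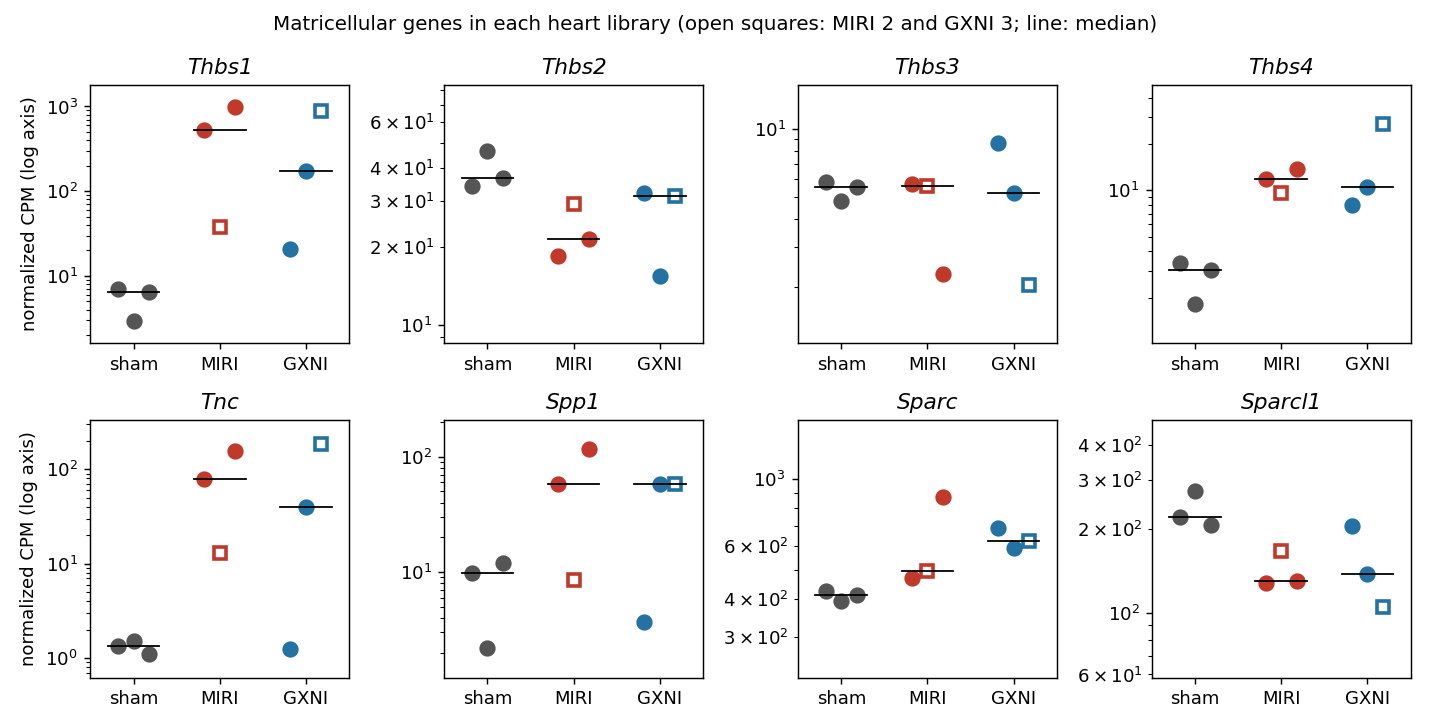
Normalized CPM on log axes for each of the 8 genes in the 9 heart libraries, by group, with a line at each group's median. Open squares are the libraries labelled MIRI 2 and GXNI 3. Thbs1 spans 2.92 to 7.09 CPM in sham and 20.9 to 998 CPM in injured hearts.

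Thbs4, a pentameric thrombospondin that acts in the stress response of the endoplasmic reticulum in heart muscle, showed a smaller and more even difference. It measured 3.38, 1.83 and 3.04 CPM in sham, 11.8, 9.62 and 13.7 CPM in MIRI and 7.99, 10.5 and 26.8 CPM in GXNI hearts. Every injured heart was above every sham heart. The fold over sham was 4.27 in MIRI (log2 2.09 ± 0.28) and 5.53 in GXNI (log2 2.47 ± 0.52). Without MIRI 2 and GXNI 3 these log2 values were 2.22 and 1.76, and with them exchanged 2.66 and 1.77. The group spread in GXNI rests mostly on GXNI 3, at 26.8 CPM.

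Thbs2 moved the other way. It measured 34.1, 46.3 and 36.7 CPM in sham, 18.4, 29.2 and 21.4 CPM in MIRI and 32.2, 15.4 and 31.2 CPM in GXNI hearts. All 6 injured hearts were below all 3 sham hearts, with the nearest values 32.2 and 34.1 CPM. The fold was 1.69 lower in MIRI (log2 -0.76 ± 0.21). In GXNI against sham the difference did not pass the threshold (log2 -0.56 ± 0.30, edgeR adjusted p = 0.308). With MIRI 2 and GXNI 3 both left out the log2 values were -0.97 in MIRI and -0.71 in GXNI hearts. With them exchanged they were -0.72 and -0.61. In both settings only the MIRI value was called.

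Thbs3 differed little. It measured 5.80, 4.80 and 5.54 CPM in sham, 5.71, 5.58 and 2.27 CPM in MIRI and 8.69, 5.22 and 2.03 CPM in GXNI hearts, and the groups overlapped. MIRI 3 and GXNI 3 were the 2 lowest. The log2 fold change was -0.25 ± 0.36 in MIRI and -0.01 ± 0.47 in GXNI hearts against sham. With MIRI 2 and GXNI 3 both left out these values were -0.43 and 0.37, and with them exchanged -0.68 and 0.28. Thbs3 was not called in these settings.

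The make-up of thrombospondin RNA shifted toward Thbs1 in all 6 injured hearts, unevenly. Thbs1 was chosen for its rise, so this shift and the ratio of Thbs1 to Thbs2 follow largely from that choice. Both are given as a description only. Per kilobase of exon, the sum of the 4 genes was 8.27 to 8.64 CPM per kb in sham hearts. It was 95.5, 14.6 and 172 CPM per kb in MIRI 1 to 3 and 12.3, 35.1 and 160 CPM per kb in GXNI 1 to 3. Thbs2 made up 58.9% to 76.5% of this sum in sham hearts, where Thbs1 was 5.56% to 14.1%. Thbs1 made up 92.2% and 95.5% in MIRI 1 and 3, 81.5% and 91.8% in GXNI 2 and 3, 43.3% in MIRI 2 and 28.0% in GXNI 1. In GXNI 1, Thbs2 was still the largest part, at 37.5%. The ratio of Thbs1 to Thbs2 per kb ran from 0.0728 to 0.239 in sham and from 0.748 to 53.8 in injured hearts, without overlap.

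**Figure D2:**
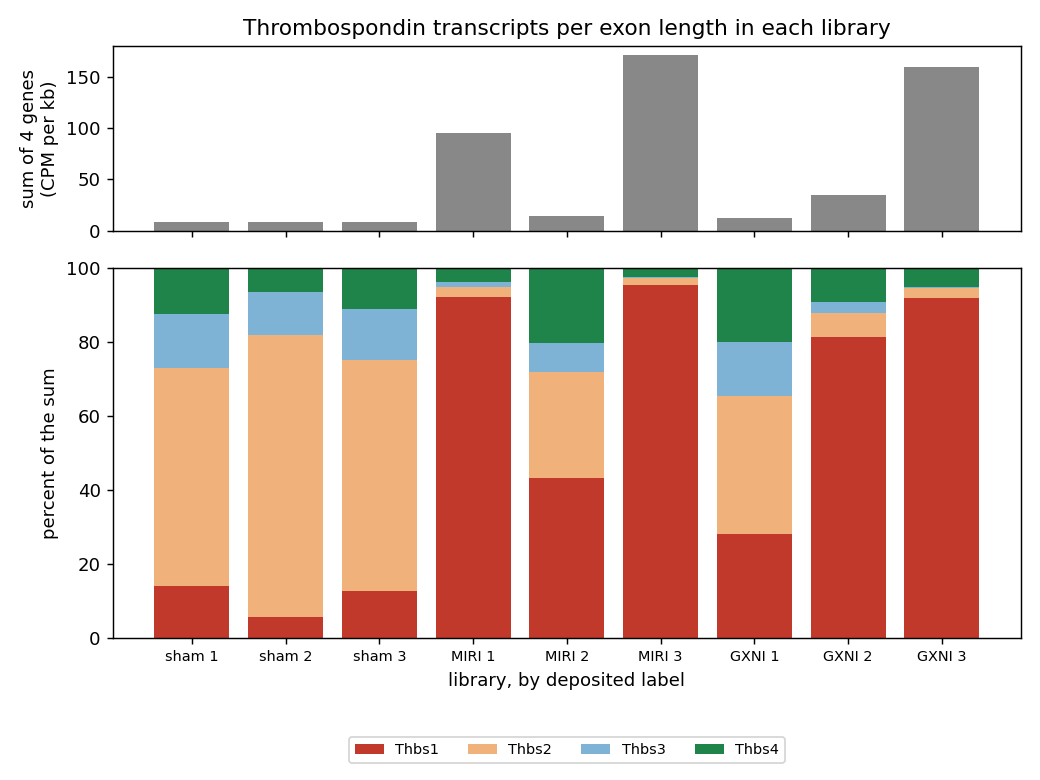
Top, the sum of Thbs1 to Thbs4 in CPM per kb of exon in each library. Bottom, the percent of that sum from each gene. Thbs2 is the largest part in the 3 sham libraries and in GXNI 1, and Thbs1 in the other 5.

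Tnc was near the bottom of the scale in sham hearts and varied most among injured ones. It measured 1.34, 1.53 and 1.12 CPM in sham, 78.0, 12.8 and 154 CPM in MIRI and 1.25, 40.0 and 186 CPM in GXNI hearts. MIRI hearts were all above sham, while GXNI 1 lay within the sham range. The fold over sham was 61.4 in MIRI (log2 5.94 ± 0.93) and 57.0 in GXNI (log2 5.83 ± 1.57). In MIRI against sham the log2 fold change was 5.09 without MIRI 3 and 6.44 without MIRI 2. Without GXNI 3 the log2 fold change of GXNI against sham was 3.95 and no longer passed the threshold. With MIRI 2 and GXNI 3 exchanged, the log2 fold changes against sham were 6.70 in MIRI and 3.76 in GXNI hearts, and both were called.

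Spp1 followed a similar order of hearts with smaller folds. It measured 9.83, 2.18 and 11.9 CPM in sham, 57.8, 8.55 and 116 CPM in MIRI and 3.70, 58.4 and 57.6 CPM in GXNI hearts. MIRI 2 and GXNI 1 lay within the sham range and the other 4 injured hearts above it. The fold over sham was 7.72 in MIRI (log2 2.95 ± 0.97) and 5.05 in GXNI (log2 2.34 ± 1.01, edgeR adjusted p = 0.256), and neither passed the threshold in edgeR. In MIRI against sham Spp1 was called by DESeq2 (log2 2.95), with MIRI 2 and GXNI 3 both left out (3.46) and with them exchanged (3.28). In GXNI against sham the values were 1.97 with both left out and 1.58 with them exchanged, and Spp1 was not called.

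Sparc, one of the most abundant transcripts of this family, was higher in every injured heart. It measured 425, 396 and 414 CPM in sham, 471, 494 and 872 CPM in MIRI and 687, 592 and 624 CPM in GXNI hearts. The fold over sham was 1.49 in MIRI (log2 0.58 ± 0.26) and 1.55 in GXNI hearts (log2 0.63 ± 0.12). The MIRI value rests largely on MIRI 3, and leaving that library out gave a log2 fold change of 0.23. Against sham, the log2 fold change in MIRI was 0.71 with MIRI 2 and GXNI 3 both left out and 0.67 with them exchanged, and of these 2 settings Sparc was called only with the exchange. In GXNI it was 0.64 and called with both left out, and 0.53 and not called with them exchanged.

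Sparcl1, the closest relative of Sparc, was lower in every injured heart. It measured 221, 274 and 207 CPM in sham, 128, 166 and 130 CPM in MIRI and 204, 138 and 105 CPM in GXNI hearts. The gap between the highest injured and the lowest sham heart was small (204 and 207 CPM). The fold was 1.65 lower in MIRI (log2 -0.73 ± 0.17) and 1.56 lower in GXNI hearts (log2 -0.64 ± 0.25, edgeR adjusted p = 0.240). With MIRI 2 and GXNI 3 both left out the log2 values were -0.86 in MIRI and -0.45 in GXNI hearts. With them exchanged they were -0.95 and -0.46. In both settings only the MIRI value was called. The ratio of Sparc to Sparcl1 per kb was 1.12 to 1.55 in sham and 2.31 to 5.20 in injured hearts, without overlap. That of Thbs4 to Thbs3 was 0.559 to 0.855 in sham and 1.35 to 19.4 in injured hearts, also without overlap. Sparc, Sparcl1 and Thbs4 each separated from sham alone, so these ratios largely restate that separation. The share of all gene pairs that separate in this way was not computed.

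A gene was called, following the study's thresholds, where its fold reached 1.5 and the quasi-likelihood test of edgeR gave an unadjusted p no larger than 0.01. All 8 members passed the filter on low counts in each comparison. Thbs1 passed these thresholds in each comparison of injured with sham hearts, which its choice fixed, so it is left out of the counts that follow. In MIRI against sham 2 of the other 7 members were called higher (Thbs4 and Tnc), where 6.15% of 14644 genes tested were, and 2 lower (Thbs2 and Sparcl1), where 2.82% were. In GXNI against sham, which uses the same sham libraries, 3 of the 7 were called higher (Thbs4, Tnc and Sparc), beside 2.67% of genes, and 0 lower, beside 1.54%. None of these 3 passed a Benjamini-Hochberg threshold of 0.05 in edgeR (adjusted p = 0.219 each), whereas with DESeq2 the adjusted p were 0.000301, 0.00424 and 0.00145. Over all genes in this comparison, 0 of 14695 passed that threshold in edgeR and 834 of 27956 in DESeq2. Over the 6 injured against the 3 sham hearts, 2 of the 7 were called higher (Thbs4 and Tnc), beside 5.52%, and 1 lower (Sparcl1), beside 2.85%. In that comparison the log2 fold changes were 6.33 ± 1.46 for Thbs1, 2.28 ± 0.42 for Thbs4 (edgeR adjusted p = 0.0622), 5.88 ± 1.46 for Tnc (0.0852) and -0.69 ± 0.20 for Sparcl1 (0.0896). Without overlap between injured and sham hearts, 2 of the 7 lay above (Thbs4 and Sparc), as did 8.43% of genes, and 2 lay below (Thbs2 and Sparcl1), as did 8.46%.

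These counts depend on single libraries, as do the counts over all genes. Thbs1 is included in the counts of called members that leave out a library, and where it was called its choice fixed that call. With all libraries and Thbs1 included, 5 members were called in MIRI against sham, 4 in GXNI against sham and 4 in all injured against sham hearts. In MIRI against sham, 3 members were called without sham 1, without sham 2, without MIRI 1 or without MIRI 3. In GXNI against sham, 2 were called without sham 1, and 1 without sham 2 or without sham 3. In all injured against sham hearts, 2 were called without sham 1 or without sham 2. Under the published grouping, 4 of the 7 members other than Thbs1 were called higher in MIRI against sham (Spp1 and Sparc in addition, 19.2% of genes) and 2 lower (16.6%), and 2 of the 7 were called higher in GXNI against sham (2.16%) and 0 lower (1.56%).

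**Figure D3:**
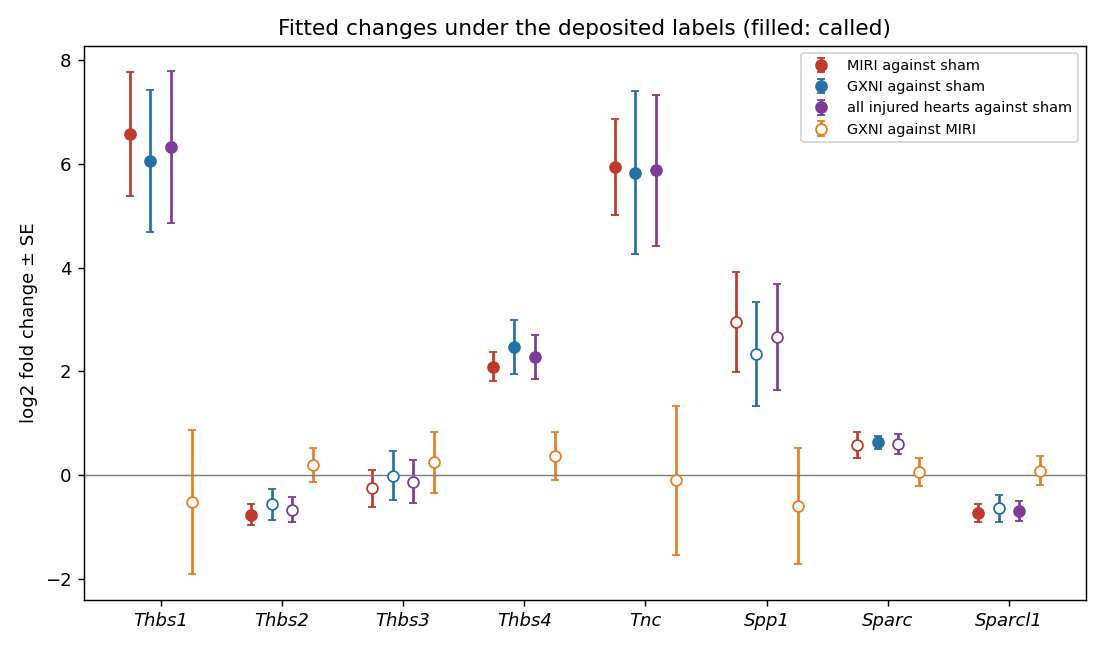
Fitted log2 fold changes with their standard errors for the 8 genes in 4 comparisons under the deposited labels. Filled points were called. Thbs1 and Tnc lie near 6 against sham in both injured groups, and all points of GXNI against MIRI are open.

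The comparison of GXNI with MIRI hearts asks whether the preparation changed these genes after injury. With the deposited labels, 0 of the 8 genes were called by edgeR, beside 0.0203% of genes called lower and 0.0% called higher. Of the 8, 0 had an unadjusted p under 0.05 in edgeR, beside 47 of 14762 genes. DESeq2 called 0 of them, beside 4 genes higher and 7 lower of 28122. The log2 fold changes ran from -0.60 ± 1.12 for Spp1 to 0.38 ± 0.46 for Thbs4, and that of Thbs1 was -0.52 ± 1.40. The MIRI libraries are those in which the rise of Thbs1 was seen when it was chosen. These errors are wide for Thbs1, Tnc and Spp1, so differences of several-fold in either direction were not detectable with these libraries.

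The result changed with the grouping of MIRI 2 and GXNI 3. With both left out, Thbs1 had a log2 fold change of -2.96 ± 0.94 and was not called. Under the published grouping it was -3.37 ± 0.74. Thbs1 was chosen for its rise in MIRI libraries, which favours a fall here, so its value is a description without a p. It was the only member called lower by edgeR in that grouping, beside 10.7% of genes, and 0 were called higher, beside 8.56%. In the same grouping Tnc had -2.94 ± 0.91 (edgeR adjusted p = 0.0501) and Thbs4 -0.88 ± 0.31 (0.0705), and neither was called by edgeR. DESeq2 on the same grouping called Thbs1 and Thbs4, beside 1907 genes called lower and 1496 higher of 28125. Tnc had a DESeq2 adjusted p of 0.0448 there and was not called.

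**Figure D4:**
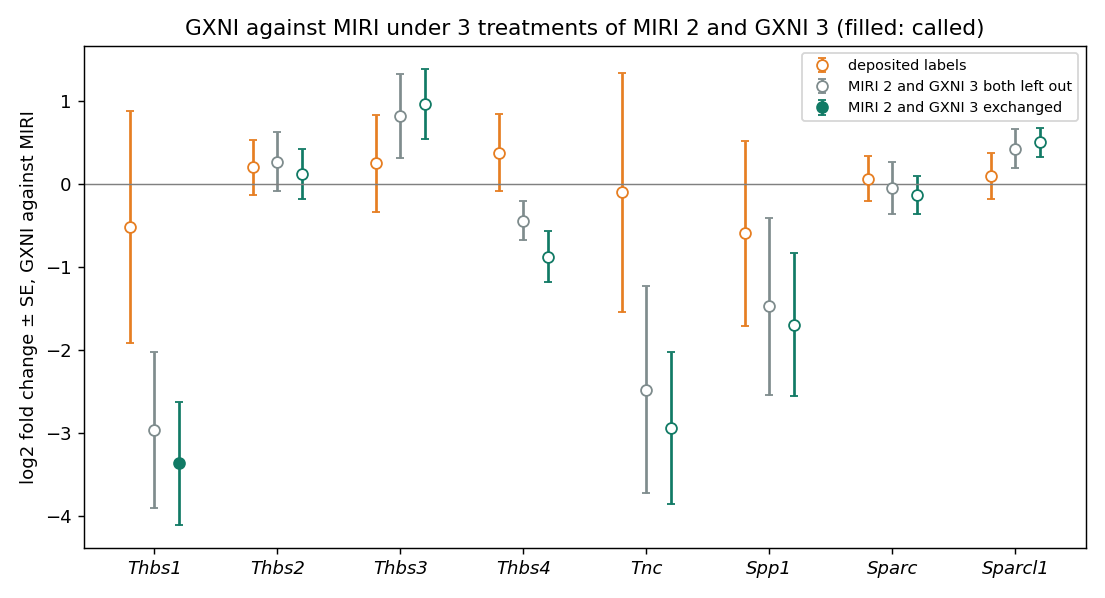
Log2 fold changes with their standard errors in GXNI against MIRI for the 8 genes, with the deposited labels, with the libraries labelled MIRI 2 and GXNI 3 both left out, and with them exchanged. The only filled (called) point is Thbs1 after the exchange, at -3.37.

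Levels between members can be set side by side only per length. In sham hearts the order in mean CPM per kb of exon was Sparc (109), Sparcl1 (79.7), Thbs2 (5.57), Spp1 (4.83), Thbs3 (1.12), Thbs1 (0.906), Thbs4 (0.836) and Tnc (0.171). The ranges of Thbs2 and Spp1 overlapped, as did those of Thbs3, Thbs1 and Thbs4, so their order is not resolved. In MIRI hearts Sparc (162) stood first and Thbs1 second (86.2), ahead of Sparcl1 (48.1), with overlapping ranges. In GXNI hearts Thbs1 was also second (59.6), its range overlapping that of Sparcl1 (50.8).

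Receptors of these proteins were tested as a list of 22 genes, of which 22 passed the filter on low counts. Over all injured against sham hearts, 6 were called higher and 0 lower, with a median log2 fold change of 0.44 beside 0.0076 over all 15207 genes tested, of which 5.52% were called higher and 2.85% lower. The 5 with the largest change were Cd44, which binds osteopontin (2.85 ± 0.80), the fibronectin receptor subunit Itga5 (2.35 ± 0.53), Itgb3, which pairs with the alpha V chain (2.27 ± 0.64), the proteoglycan Sdc1 (1.99 ± 0.57) and Itga3 (1.38 ± 0.24), with edgeR adjusted p of 0.0884, 0.0852, 0.0884, 0.0897 and 0.0573. Cd36 and Cd47, the best known receptors of Thbs1, had -0.01 ± 0.21 and 0.10 ± 0.14. Cd44 measured 9.56, 9.51 and 12.9 CPM in sham, 106, 16.3 and 121 CPM in MIRI and 16.5, 43.0 and 159 CPM in GXNI hearts, with its lowest injured values again in MIRI 2 and GXNI 1. In GXNI against MIRI 0 receptors were called, beside 0.0203% of genes called lower and 0.0% higher.

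Of 23 other matricellular genes, 19 passed the filter, and 4 were called higher and 0 lower in injured hearts, beside the same 5.52% and 2.85% of all genes, with a median log2 fold change of 0.73. These were Ccn2 (connective tissue growth factor, log2 3.47 ± 0.63, edgeR adjusted p = 0.0579), Ccn4 (2.65 ± 0.69, 0.0875), Ccn1 (2.37 ± 0.72, 0.0940) and Fstl1 (0.86 ± 0.14, 0.0546). Ccn2 measured 48.0, 40.6 and 33.4 CPM in sham, 657, 249 and 704 CPM in MIRI and 131, 222 and 745 CPM in GXNI hearts, so that its injured range did not overlap sham. Of 13 processing enzymes 12 passed the filter, and 0 were called lower (2.85% of all genes) and 3 higher (5.52%), with a median of 0.39. The 3 were Adamts4 (5.40 ± 1.60), a protease that cleaves proteoglycans, Adamts1 (2.76 ± 0.56) and the crosslinking enzyme Tgm2 (1.11 ± 0.29), with edgeR adjusted p of 0.0927, 0.0781 and 0.0875.

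**Figure D5:**
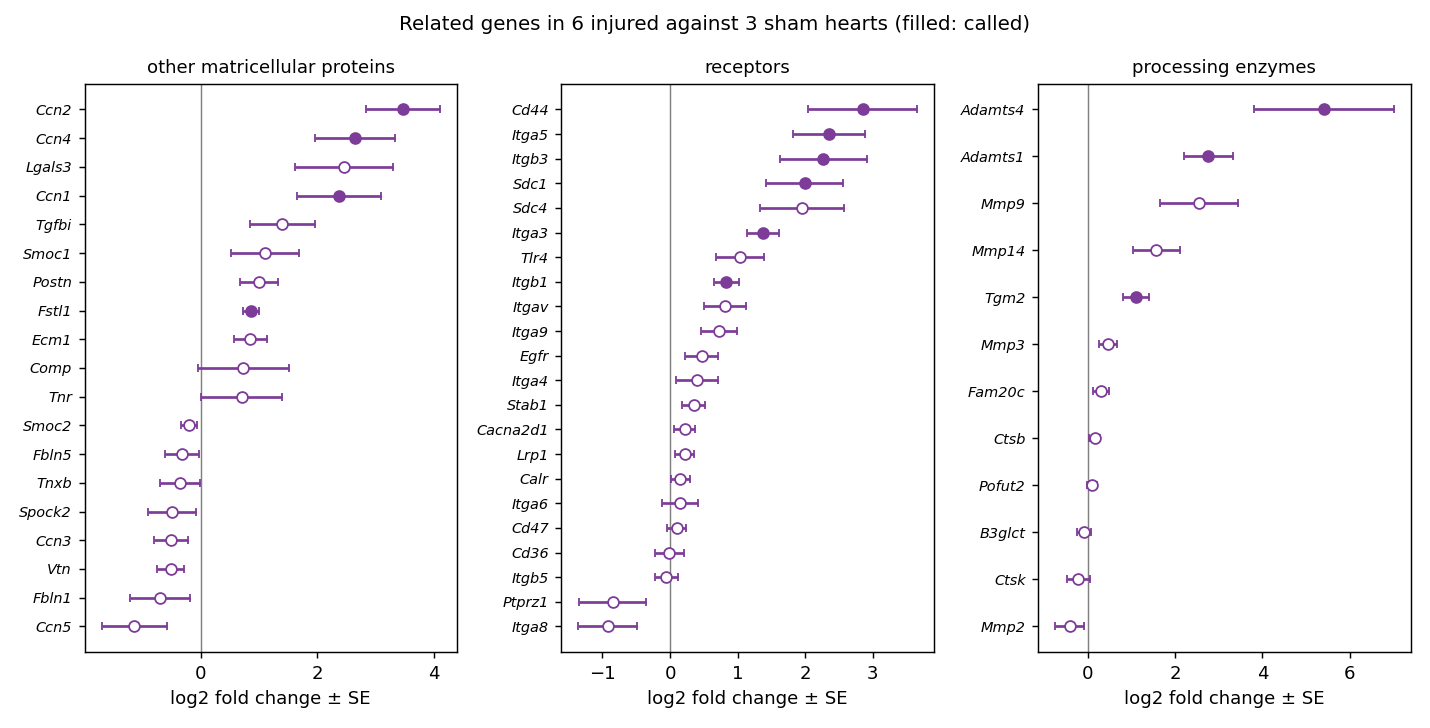
Log2 fold changes with their standard errors in 6 injured against 3 sham hearts for receptors, other matricellular proteins and processing enzymes that passed the filter on low counts. Filled points were called. Ccn2 (3.47), Cd44 (2.85) and Adamts4 (5.40) are the highest of their lists.

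Markers of several cell types differed between the hearts. The summed level of 6 neutrophil markers was 25.2 to 50.7 CPM in sham, 614, 23.5 and 497 CPM in MIRI 1 to 3 and 41.6, 179 and 557 CPM in GXNI 1 to 3. It was within or below the sham range in MIRI 2 and GXNI 1, the injured hearts with the lowest Thbs1. The sum of 6 platelet markers was 21.2 to 29.9 CPM in sham, 23.8 to 79.9 CPM in MIRI and 27.2 to 43.7 CPM in GXNI hearts, with Gp1bb at 0 counts in all libraries and Pf4 at 55.2 CPM in MIRI 3. The sum of 6 cardiomyocyte markers was 35379 to 38044 CPM in sham, 24632, 39846 and 28329 CPM in MIRI 1 to 3 and 31946, 26101 and 25855 CPM in GXNI 1 to 3. It was below the sham range in every injured heart except MIRI 2, so also in GXNI 1, where Thbs1 was lowest. Of these markers 1, Actc1, was higher in all injured against sham hearts (log2 0.54 ± 0.33) and the others were lower. Macrophage markers, also 6, summed to 324 to 353 CPM in sham, 234 to 331 CPM in MIRI and 209 to 432 CPM in GXNI hearts. The sum of 6 fibroblast markers was 843 to 925 CPM in sham, 612 to 793 CPM in MIRI and 472 to 1114 CPM in GXNI hearts. GXNI 1 held both the highest fibroblast sum and the highest mesothelial sum, 76.1 CPM against 8.94 to 25.1 CPM elsewhere. In all injured against sham hearts edgeR called 0 neutrophil, cardiomyocyte, platelet, macrophage and fibroblast markers, of which 5, 3, 3, 1 and 1 had an unadjusted p under 0.05, and DESeq2 called 4, 1, 2, 0 and 0. Over all genes in that comparison, 4488 of 15207 had an edgeR p under 0.05, and edgeR called 840 higher and 434 lower. DESeq2 called 1519 higher and 677 lower of 29338 genes. The part of these marker differences in the levels of the members was not tested.

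By likeness of log2 CPM over the 9 libraries, among 15206 genes, the genes nearest to Thbs1 were the splicing factor U2af1 (Pearson r = 0.998), Pdcd6ip (0.997) and Actn1 (0.996). Those nearest to Tnc were Rtn4 (0.996), Cct6a (0.994) and Tspan9 (0.994), to Spp1 Fcrlb (0.981), Hmga2 (0.981) and Ltbp2 (0.980), and to Thbs4 Syvn1 (0.989), Tmem88b (0.977) and Fbxo17 (0.976). Those nearest to Thbs2 were Ltbp1 (0.981), Stc2 (0.960) and Myom2 (0.925), to Sparc B4galt2 (0.952), Tmem123 (0.929) and Loxl2 (0.929), and to Sparcl1 Cracr2b (0.990), Iqce (0.986) and Samd12 (0.985). Trim68 (0.976) and Rnf170 (0.976) were among those nearest to Thbs3. The 9 points share libraries and group structure, so these values describe likeness only.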

How the data were processed

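RNA from heart tissue of 3 sham, 3 MIRI and 3 GXNI mice was sequenced. The authors filtered reads, aligned them with HISAT2 to mm10 and counted them per gene with featureCounts, and the deposited values are these counts, with no normalization. Versions, annotation and strand setting are not given in the sources used here. Of 54532 gene IDs, 54495 were paired with GENCODE M21 (GRCm38) and 37 were not. The table held 0 columns from other samples.

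Fits used the libraries of the groups compared, with edgeR 4.0.16 in R 4.3.3 (TMM normalization, filterByExpr, quasi-likelihood F test, Benjamini-Hochberg adjustment over all genes tested), without covariates. The fits made no use of the replicate numbers of the labels. CPM used TMM factors, and log2 CPM a prior count of 0.5. Exon lengths are merged exons. Promoters came from RefSeq. On simulated counts, 200 of 200 genes changed by 2 log2 units were recovered in MIRI against sham by edgeR (14603 genes run) and by DESeq2 1.42.0 (24771 genes run). The simulation used the same fixed dispersion for every gene and changed only genes well expressed in sham hearts. It therefore checks the code and does not measure power for genes as uneven among injured hearts as Thbs1 and Tnc. Alternatives were DESeq2, RLE factors, the replicate block, no filter, Benjamini-Hochberg calls, a joint fit of all 9 libraries, libraries left out, and MIRI 2 and GXNI 3 exchanged or both left out. DESeq2 on the exchanged grouping was chosen after seeing the data. The exchange was checked against the supplementary fold changes, from which those computed here differed by a median of 0.409 log2 units with the deposited labels and 0.00452 with the exchange in MIRI against sham, over 1715 genes. All pairs of libraries differed by more than sampling noise (smallest chi-square per degree of freedom 14.4, sham 2 and sham 3).

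The text names the 8 members, up to 5 called genes per list with the largest change in all injured against sham hearts, and the 3 genes most like each member, of which 1 is not reported here. Cd36, Cd47 and the markers and genes of the closing section outside that rule were named after their values were seen. Members and lists were chosen with earlier results of these data known.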

Additional observations from a re-analysis of the deposited data

How the results depend on the processing

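The counts of called members here include Thbs1, whose calls against sham followed from its choice. With a Benjamini-Hochberg threshold of 0.05 in edgeR, 0 members were called in MIRI against sham, in GXNI against sham and in all injured against sham hearts, while DESeq2 adjusted p were under 0.05 for Thbs4 and Tnc in each of the 3 comparisons. Over all genes, 2 of 14644, 0 of 14695 and 9 of 15207 reached an edgeR adjusted p of 0.05 in these 3 comparisons. For DESeq2 these counts were 2025 of 27898, 834 of 27956 and 2170 of 29338. All 9 libraries in 1 fit gave 3 called in MIRI against sham, beside 535 genes called higher and 265 lower of 15207. Leaving out 1 library at a time gave 3 to 6 called in MIRI against sham, 1 to 5 in GXNI against sham, 2 to 5 in all injured against sham and 0 to 0 in GXNI against MIRI. Over all genes these fits called 340 to 2571 higher and 174 to 2021 lower in MIRI against sham. In GXNI against sham they called 83 to 1603 higher and 90 to 1062 lower. In all injured against sham the ranges were 254 to 1466 and 209 to 858, and in GXNI against MIRI 0 to 8 and 0 to 9. In GXNI against MIRI, 1 member (Thbs1) was called with MIRI 2 and GXNI 3 exchanged, beside 1264 genes called higher and 1575 lower of 14762. DESeq2 on that grouping called 2 (Thbs1 and Thbs4), beside 1496 and 1907 of 28125 genes, and gave no p for Spp1. The cause was not tested. In GXNI against MIRI, Thbs4 was -0.88 with the exchange, -0.90 with DESeq2 on it and -0.45 with both left out, and Sparc -0.14, -0.16 and -0.056, each reversed from the deposited labels. Thbs3 in GXNI against sham was 0.28, 0.27 and 0.37 under the same settings, also reversed. With 1 library left out, log2 fold changes crossed 0 in GXNI against MIRI for Thbs1 (-2.42 to 0.34), Thbs3 (-0.31 to 0.63), Thbs4 (-0.33 to 0.68), Tnc (-1.98 to 0.73), Spp1 (-1.12 to 0.26), Sparc (-0.095 to 0.39) and Sparcl1 (-0.21 to 0.28), and for Thbs3 in MIRI against sham (-0.46 to 0.067), in GXNI against sham (-0.55 to 0.37) and in all injured against sham (-0.37 to 0.032). The replicate block gave 6 called in MIRI against sham, 0 in GXNI against MIRI, 3 in GXNI against sham and 4 in all injured hearts. Over all genes it called 698, 2, 342 and 901 higher and 367, 1, 231 and 600 lower in these comparisons. Replicate numbers showed no steady pairing of the samples. Correlations of deviations in same-numbered libraries ran from -0.44 to 0.70 between GXNI and MIRI, and 3 of 6 libraries there correlated best with their own number. Between MIRI and sham they ran from -0.084 to 0.11, with 2 of 6 best with their own number. Between GXNI and sham they ran from -0.076 to 0.12, with 4 of 6. Counting depth limits low genes such as Tnc in sham hearts, at 21 to 31 counts.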

Other observations

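Several related genes shared the uneven order of injured hearts without passing the threshold in all injured against sham hearts. The galectin gene Lgals3 measured 6.28, 8.12 and 9.70 CPM in sham, 56.9, 6.06 and 84.0 CPM in MIRI and between 8.39 and 78.3 CPM in GXNI hearts (log2 2.45 ± 0.84, edgeR adjusted p = 0.110). The gelatinase gene Mmp9 measured 5.85, 3.96 and 6.07 CPM in sham, 43.7, 2.85 and 72.6 CPM in MIRI and 6.69, 24.1 and 36.2 CPM in GXNI hearts (log2 2.55 ± 0.89, edgeR adjusted p = 0.112). Both had their lowest injured values in MIRI 2 and GXNI 1. Periostin (Postn), a matricellular gene of activated fibroblasts, measured 23.6 to 30.8 CPM in sham and 28.7 to 77.6 CPM in injured hearts (log2 1.01 ± 0.33, edgeR adjusted p = 0.102), with GXNI 1 within the sham range. Comp, a pentameric relative of Thbs3 and Thbs4, stayed low, at 0.639 to 0.913 CPM in sham and 0.129 to 3.32 CPM in injured hearts.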
